A study of Mus musculus with 12 samples.

Results

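A set of 10 genes that mark newly formed and immature neurons were followed across the 4 groups of the study: Dcx, Stmn1, Sox11, Sox4, Neurod1, Igfbpl1, Tubb2b, Tubb3, Calb2 and Eomes. They were taken by name from the gene symbols of the deposited FPKM values and matched by Ensembl ID to the count table. All 10 were found among its 35812 gene IDs, and all 10 were among the 16153 genes with enough reads to be tested.

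The adult mouse hippocampus keeps making granule neurons in the subgranular zone of the dentate gyrus. Radial glia-like stem cells give rise to dividing intermediate progenitors, which carry the T-box factor Eomes, and then to neuroblasts that carry doublecortin (Dcx) and pass through a short calretinin (Calb2) stage before they become mature granule neurons. Several of the genes are made by other cells too: Neurod1 stays on in mature granule neurons, Tubb3 and Stmn1 are made by mature neurons as well, and Calb2 marks interneurons and mossy cells of the mouse hippocampus.

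The data are mRNA libraries of the whole hippocampus, each from 1 C57BL/6 male aged 8 weeks, and there are 3 such mice in each of the 4 groups, 12 in all. F0-Dep mice had depression induced by stress, and F0-Ctl mice were their normal counterparts. F1-Dep mice were sons of stress-induced depressed males, and F1-Ctl mice were sons of normal males. No genetic change or drug is named for any group, and the sources used here do not say how the stress was given or which fathers or litters the sons came from, so sons of a group may share a father. Lane names stand in the labels of F1-Ctl alone, so its sequencing cannot be told apart from its group. In whole hippocampus, fewer cells of a type and less RNA per cell cannot be told apart.

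The 12 libraries held 18277208 to 23083678 expected counts each. Some libraries stood apart before any gene was compared. The summed level of 9 striatum markers was 1474 TMM-scaled CPM (a gene's counts relative to its library's total, scaled by edgeR's TMM and written as CPM below) in F1-Dep library 1 and 193 to 366 CPM in the other 11. The 11 choroid plexus markers summed to 9244 CPM in F1-Ctl library 3, 5134 CPM in F0-Ctl library 3 and 2894 to 4643 CPM in the F1-Dep libraries, against 104 to 698 CPM in the rest. The count table also gave the pseudogene Gm28661 4345 ± 284 CPM in F0-Dep (SD, n = 3) and 0 in every other library, while its FPKM was 5388 ± 79.7 in F0-Dep, 5429 ± 249 in F1-Dep and 6101 ± 771 in F0-Ctl. Every stretch of 31 bases of Gm28661, 651 of 651, is found in the mitochondrial transcript mt-Co2, which held 0.0879% to 0.168% of the counts in F0-Dep and 0.673% to 1.06% in the other libraries. Reads of this pair were thus divided differently in the F0-Dep columns, and whether reads of the members were assigned alike in all groups was not tested.

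Per length, the members covered a wide range of levels, and 3 of them were far above the others. Over the 9 libraries with FPKM values, Stmn1 averaged 159 FPKM, Tubb2b 107 FPKM and Tubb3 89.8 FPKM. Neurod1 averaged 9.59 FPKM, Calb2 6.33, Sox4 5.88, Sox11 3.42, Dcx 2.52, Igfbpl1 1.38 and Eomes 0.18 FPKM. The doublecortin message thus lay below 42.6% of the genes listed, while only 1.09% of them were above Stmn1. Eomes, the progenitor factor, was the lowest member, with 0.0153 to 0.363 FPKM.

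**Figure D1:**
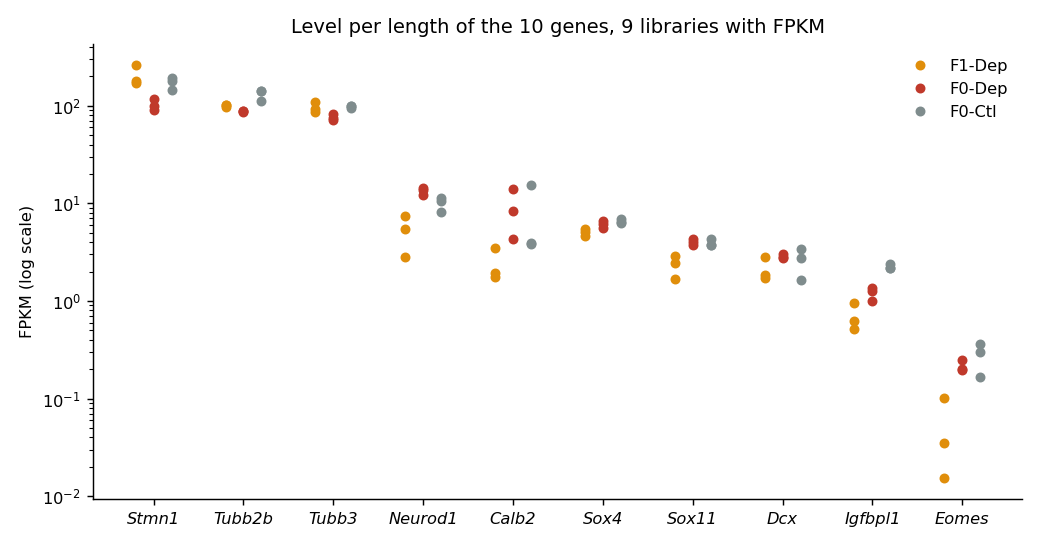
FPKM of the 10 genes on a log scale, 1 point per library, for F1-Dep, F0-Dep and F0-Ctl (3 libraries each). Stmn1, Tubb2b and Tubb3 lie above 71.1 FPKM in every library shown, and every other gene lies below 15.6 FPKM.

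Few members passed the test against the control group of their own generation. In F0-Dep against F0-Ctl, 8 of 10 members had a negative log2 fold change, as did 54.6% of all genes, and 1 member, Tubb2b, fell at an adjusted p under 0.05 in edgeR's quasi-likelihood test, where 0.501% of all genes were called. In F1-Dep against F1-Ctl, 8 of 10 were again negative, as were 53.1% of all genes, and 0 were called by edgeR, where 0.167% of all genes were called. At an unadjusted p under 0.05 that comparison held 7 members, beside 14.9% of all genes, and DESeq2 called 3 members, Igfbpl1, Neurod1 and Tubb2b, beside 3.34% of all genes. In F1-Dep against F0-Dep, 3 members fell and 1 rose, where 2.88% of all genes were called, 1.57% lower and 1.31% higher. DESeq2 called 2 members in F0-Dep against F0-Ctl, beside 6.67% of all genes, and 7 in F1-Dep against F0-Dep, beside 9.32%. Both counts of 7 members include Eomes, which passed the filter on low counts through groups where it was higher. Eomes thus does not add to them as evidence.

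The median log2 fold change of the 10 members was -0.17 in F0-Dep against F0-Ctl, with -0.03 over all genes tested. It was -0.52 in F1-Dep against F1-Ctl, with -0.02 over all genes. Against F0-Dep, the F1-Dep libraries had a member median of -0.59, with 0.01 over all genes. F1-Dep against F0-Ctl had a member median of -0.69, with -0.01 over all genes, and edgeR called 0 members and 0% of all genes. In that comparison 8 members had an unadjusted p under 0.05, beside 12.9% of all genes, and DESeq2 called 6, beside 2.53%. Eomes is in both counts and again does not add to them as evidence. These comparisons share libraries with each other, so their values are not separate evidence. Between the control groups, F1-Ctl against F0-Ctl, edgeR called 0 members and 0% of all genes, 1 member had an unadjusted p under 0.05 beside 5.93% of all genes, and DESeq2 called 0.

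**Figure D2:**
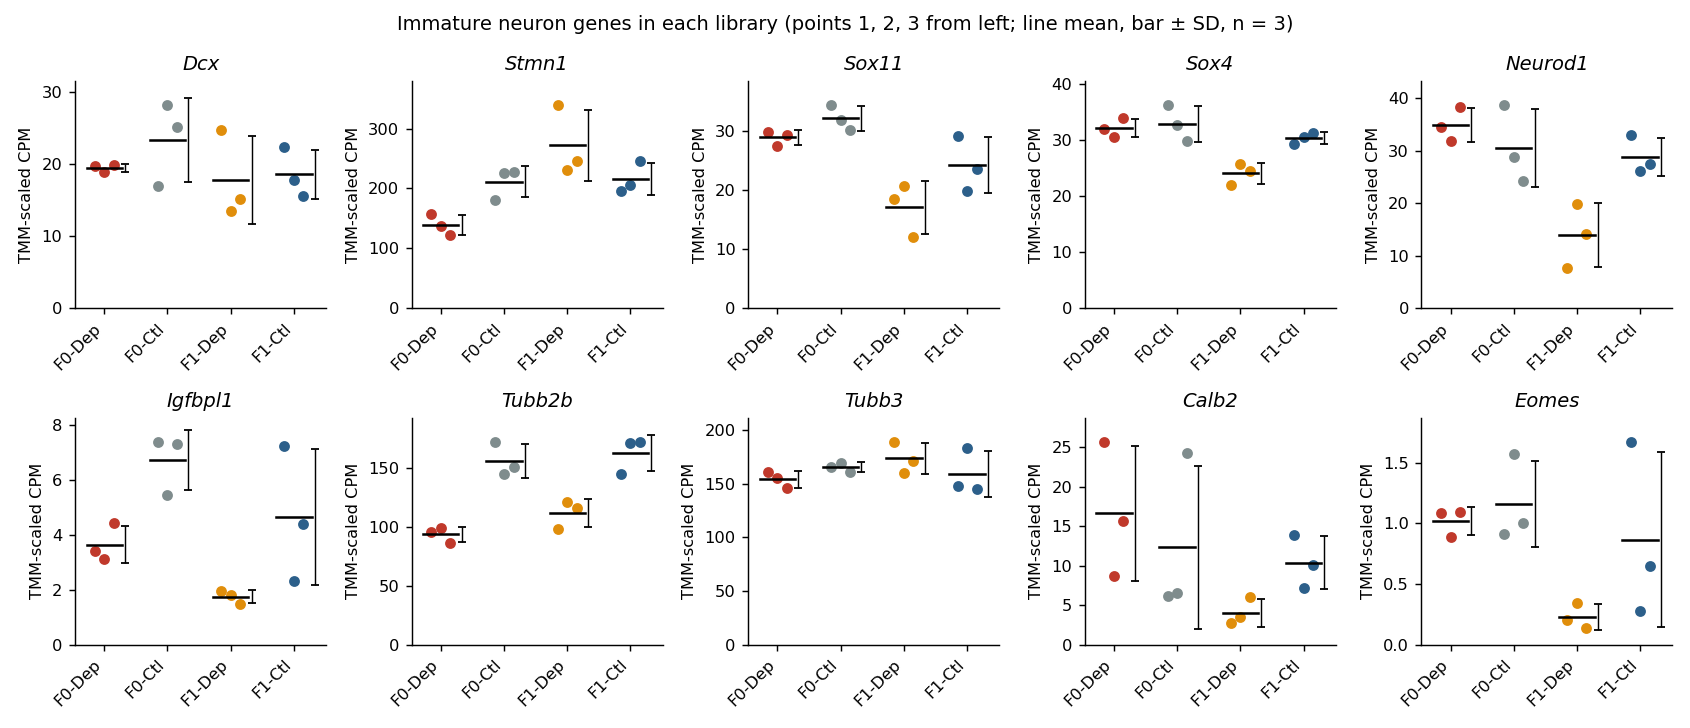
TMM-scaled CPM of each of the 10 genes, 1 point per library, with the group mean (line) and SD (bar, n = 3). Tubb2b is lower in all F0-Dep libraries than in all F0-Ctl libraries. Neurod1, Sox4, Igfbpl1 and Calb2 are lower in all F1-Dep libraries than in every other library.

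Of the 4 transcription factors, Neurod1, Sox11 and Sox4 fell in F1-Dep against F0-Dep, and none was called by edgeR against F1-Ctl, where DESeq2 called Neurod1. Eomes, Neurod1, Sox4 and Sox11 act as progenitors leave the cell cycle and become neurons: Neurod1 is a basic helix-loop-helix activator needed for granule neurons to form, and Sox4 and Sox11 are the SoxC factors that turn on neuronal genes such as Tubb3 and Dcx. The promoter windows of the 3 factors that fell are shown because they were called in the same comparison, 250 bases before to 50 after the transcription start, on GRCm38.p6 from RefSeq. Capitals mark the E-box letters CANNTG, the core that basic helix-loop-helix factors bind, which read the same on both strands.

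Neurod1 promoter, chr2:79456587-79456886, minus strand: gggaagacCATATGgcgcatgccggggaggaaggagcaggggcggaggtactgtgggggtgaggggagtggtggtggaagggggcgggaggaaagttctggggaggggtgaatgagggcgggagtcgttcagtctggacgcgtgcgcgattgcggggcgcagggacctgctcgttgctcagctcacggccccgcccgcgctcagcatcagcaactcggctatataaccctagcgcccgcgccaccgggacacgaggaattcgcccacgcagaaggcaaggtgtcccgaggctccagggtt

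Sox11 promoter, chr12:27342669-27342968, minus strand: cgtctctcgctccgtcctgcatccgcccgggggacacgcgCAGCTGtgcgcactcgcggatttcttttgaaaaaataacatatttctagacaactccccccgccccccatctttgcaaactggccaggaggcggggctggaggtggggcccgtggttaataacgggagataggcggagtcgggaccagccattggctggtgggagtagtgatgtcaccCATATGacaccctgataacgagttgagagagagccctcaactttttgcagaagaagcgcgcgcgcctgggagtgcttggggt

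Sox4 promoter, chr13:28953650-28953949, minus strand: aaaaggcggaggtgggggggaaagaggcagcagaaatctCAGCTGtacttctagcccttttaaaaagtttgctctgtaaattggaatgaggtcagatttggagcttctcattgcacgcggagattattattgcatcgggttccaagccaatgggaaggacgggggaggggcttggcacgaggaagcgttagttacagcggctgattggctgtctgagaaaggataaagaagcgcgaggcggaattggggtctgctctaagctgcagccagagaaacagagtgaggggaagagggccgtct

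The Neurod1 window held 1 E-box, the Sox11 window 2 and the Sox4 window 1, while the windows of Dcx, Eomes and Tubb3 held 0. Since 72.3% of all 32851 promoter windows hold these letters, a match is common. The SOX letters ACAAAG, read on both strands, occurred in 1 of the 7 member windows, the downstream one of the 2 Dcx windows, and in 18.7% of all windows. That window, chrX:143933075-143933374 on the minus strand, is shown because Dcx is the defining gene of the neuroblast stage. Its capitals mark the SOX letters.

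Dcx promoter: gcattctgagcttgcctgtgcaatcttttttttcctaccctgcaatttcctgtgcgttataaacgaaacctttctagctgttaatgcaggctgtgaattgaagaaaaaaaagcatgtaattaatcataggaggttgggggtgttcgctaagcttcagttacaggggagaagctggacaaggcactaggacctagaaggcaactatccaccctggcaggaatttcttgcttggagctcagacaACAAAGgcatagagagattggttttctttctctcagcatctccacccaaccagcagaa

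Neurod1 was measured at 7.66, 19.9 and 14.1 CPM in F1-Dep, against 34.5, 31.9 and 38.3 CPM in F0-Dep. The F1-Ctl libraries had 32.97, 26.1 and 27.5 CPM, and the F0-Ctl libraries 38.7, 28.8 and 24.2 CPM. Every F1-Dep library was thus below every library of the other 3 groups, which overlapped among themselves. Its log2 fold change was -1.32 ± 0.27 (SE) in F1-Dep against F0-Dep, past the threshold with an adjusted p of 0.035 (edgeR quasi-likelihood). Against F1-Ctl it was -1.05 ± 0.27, with an adjusted p of 0.12 in the same edgeR fit, and against F0-Ctl -1.13 ± 0.27, with an adjusted p of 0.142. In F0-Dep against F0-Ctl the log2 fold change was 0.19 ± 0.27, with edgeR's adjusted p at 0.724. Neurod1 lies at chr2:79452521-79456751 inside Cerkl on the same strand, so the reads of the pair may be mixed.

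Sox11 had 18.4, 20.7 and 12.1 CPM in F1-Dep, against 29.8, 27.5 and 29.3 CPM in F0-Dep. It had 29.2, 19.8 and 23.6 CPM in F1-Ctl, and 34.3, 31.9 and 30.1 CPM in F0-Ctl. F1-Dep lay below both F0 groups in every library and overlapped with F1-Ctl. Its log2 fold change in F1-Dep against F0-Dep was -0.76 ± 0.18, with an adjusted p of 0.0494 in edgeR, just inside the threshold. Against F1-Ctl the value was -0.51 ± 0.18, with edgeR's adjusted p at 0.232. Even between the controls, all F1-Ctl libraries were below all F0-Ctl libraries (log2 fold change -0.41 ± 0.18, adjusted p 0.75 in edgeR). Sox11 was the only member so placed there, beside 3.34% of all genes.

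Sox4 was at 22.0, 25.7 and 24.4 CPM in F1-Dep and at 32.0, 30.5 and 33.8 CPM in F0-Dep. F1-Ctl had 29.2, 30.5 and 31.2 CPM, and F0-Ctl 36.1, 32.6 and 29.8 CPM. F1-Dep was below every other library, and the other 3 groups overlapped. The difference was small but passed in F1-Dep against F0-Dep, at -0.42 ± 0.10 on the log2 scale (adjusted p 0.0439 in edgeR). Against F1-Ctl it was -0.33 ± 0.10, with an adjusted p of 0.148 by edgeR.

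Eomes was close to the limit of detection. The F1-Dep libraries had 0.21, 0.34 and 0.14 CPM, from 4.01, 8.01 and 3.03 expected counts. F1-Ctl libraries had 1.67, 0.28 and 0.65 CPM, F0-Dep libraries 1.09, 0.89 and 1.09 CPM and F0-Ctl libraries 0.92, 1.57 and 0.999 CPM. All F1-Dep libraries lay below all F0 libraries and overlapped with F1-Ctl, and all were under the 0.492 CPM that the filter on low counts asked for, so Eomes was tested through the other groups. Its log2 fold change was -2.12 ± 0.61 in F1-Dep against F0-Dep, with an adjusted p of 0.0737 in edgeR, and -1.91 ± 0.61 against F1-Ctl, with an adjusted p of 0.183. The value against F1-Ctl rested largely on F1-Ctl library 1, and without it was -0.9997 ± 0.54, with an adjusted p of 0.308 in edgeR.

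The cytoskeletal members did not move as 1 group. Dcx and Stmn1 act on microtubules in opposite ways, doublecortin by stabilising them in migrating neuroblasts and stathmin by binding free tubulin and destabilising them. Tubb2b and Tubb3 are neuronal beta-tubulins, and mutations of Dcx, Tubb2b and Tubb3 disturb neuronal migration or axon growth in humans.

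Tubb2b (chr13:34126748-34130466, minus strand) was the member that fell in the stressed mice. It had 96.0, 98.7 and 86.2 CPM in F0-Dep, against 172, 145 and 151 CPM in F0-Ctl. The F1-Dep libraries had 98.5, 121 and 116 CPM, against 145, 172 and 172 CPM in F1-Ctl. In both generations the groups did not overlap. The log2 fold change was -0.73 ± 0.11 in F0-Dep against F0-Ctl, a 0.601-fold level, with an adjusted p of 0.0306 in edgeR's quasi-likelihood test, where 0.155% of all genes were called lower. In F1-Dep against F1-Ctl it was -0.54 ± 0.11, with an adjusted p of 0.0703 by edgeR. The difference between these changes was 0.19 ± 0.16 on the log2 scale, with edgeR's adjusted p at 0.648. Tubb2b was also the member called in the test of any difference among the 4 groups (adjusted p 0.024 by edgeR), where 0.39% of all genes were called.

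The F0 call on Tubb2b was lost without F0-Dep library 1 (adjusted p 0.0653), 2 (0.151) or 3 (0.182), F0-Ctl library 1 (0.0895) or F1-Dep library 2 (0.0536) or 3 (0.0684) in edgeR. Across those refits its log2 fold change stayed between -0.77 and -0.64. It was also lost in a fit of the F0 groups alone, with an adjusted p of 0.0541. The mitochondrial share of counts moved with Tubb2b, at 5.09% to 5.32% in F0-Dep, 7.75% to 9.26% in F0-Ctl, 6.70% to 7.17% in F1-Dep and 7.45% to 10.9% in F1-Ctl. Part of that gap is Gm28661, the mt-Co2 copy counted in F0-Dep alone, and with it the F0-Dep share was 5.54% to 5.72%. The part of the mitochondrial share in the result was not tested.

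Tubb2b has a close relative, Tubb2a, whose coding sequence is 96.5% identical over 1335 bases, with 47 mismatches and an identical stretch of 551 bases, so reads can be shared. The last 60 coding bases, which carry the acidic tail where beta-tubulins differ most, show how close the pair is. They are taken from GENCODE M21 on GRCm38, coding positions 1276 to 1335, and capitals mark the 3 bases that differ.

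Tubb2b coding end: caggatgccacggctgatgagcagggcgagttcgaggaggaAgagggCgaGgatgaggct

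Tubb2a coding end: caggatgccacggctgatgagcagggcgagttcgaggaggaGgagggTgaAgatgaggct

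Tubb2a was not called in the stressed mice, and the count table and FPKM values differed on it. It averaged 529 ± 25.0 CPM in F0-Dep and 527 ± 70.8 CPM in F0-Ctl (SD, n = 3 each), which is 0.01 ± 0.11 on the log2 scale (adjusted p 0.98 in edgeR). In FPKM it averaged 246 ± 6.43 in F0-Dep and 294 ± 47.6 in F0-Ctl (SD, n = 3 each), -0.25 ± 0.11 on the log2(FPKM + 1) scale (adjusted p 0.129 in limma), the direction of Tubb2b at a smaller size. In the sons it averaged 509 ± 5.10 CPM in F1-Dep and 608 ± 59.5 CPM in F1-Ctl (SD, n = 3 each), which is -0.26 ± 0.11 on the log2 scale (adjusted p 0.294 in edgeR).

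Stmn1 (chr4:134468320-134473843, plus strand) was lowest in the stressed mice and highest in the sons of stressed males. The F0-Dep libraries had 157, 136 and 122 CPM, against 181, 226 and 227 CPM in F0-Ctl. The F1-Dep libraries had 339, 230 and 246 CPM, against 196, 206 and 245 CPM in F1-Ctl. F0-Dep was below every other library, while F1-Dep overlapped with F1-Ctl. Stmn1 rose in F1-Dep against F0-Dep, by 0.97 ± 0.16 on the log2 scale, a 1.96-fold level (adjusted p 0.0206 in edgeR). In F0-Dep against F0-Ctl it was -0.61 ± 0.16, with an adjusted p of 0.0849, and in F1-Dep against F1-Ctl 0.33 ± 0.16, with an adjusted p of 0.355, both by edgeR. The difference between these changes was 0.94 ± 0.22, with edgeR's adjusted p at 0.121. F1-Dep library 1, which stood apart in striatum markers, had the highest Stmn1, and without it the log2 fold change against F0-Dep was 0.78 ± 0.14, with an adjusted p of 0.081.

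The calls in F1-Dep against F0-Dep depended on single libraries. Stmn1 and Neurod1 lost theirs in edgeR without F0-Dep library 1 (adjusted p 0.059 for Stmn1 and 0.101 for Neurod1), library 2 (0.0859 and 0.101) or library 3 (0.141 and 0.157). The same held without F1-Dep library 1 (0.081 and 0.0882) or library 3 (0.0608 and 0.0944). Without F1-Ctl library 2, Neurod1 had an adjusted p of 0.0507. Sox11 and Sox4 lost their calls in edgeR without any 1 F0-Dep or F1-Dep library (adjusted p 0.053 to 0.182 for Sox11 and 0.0707 to 0.187 for Sox4). Without F0-Ctl library 2 their adjusted p was 0.06 for Sox11 and 0.0536 for Sox4, and without F1-Ctl library 2 it was 0.0578 for Sox11 and 0.0604 for Sox4. Sox11 also missed the threshold without TMM scaling (adjusted p 0.057), and Sox4 without the filter on low counts (0.0585).

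Dcx, the usual marker of neuroblasts, was not called in any comparison. It had 19.7, 18.8 and 19.9 CPM in F0-Dep, against 16.9, 28.2 and 25.1 CPM in F0-Ctl. The F1-Dep libraries had 24.7, 13.4 and 15.2 CPM, against 22.4, 17.8 and 15.6 CPM in F1-Ctl. All groups overlapped, and the SD was 6.09 CPM in F1-Dep and 5.83 CPM in F0-Ctl around group means of 17.8 to 23.4 CPM. In F0-Dep against F0-Ctl the log2 fold change was -0.26, with a 95% interval from -0.73 to 0.20 and an adjusted p of 0.559 in edgeR. In F1-Dep against F1-Ctl it was -0.07, with an interval from -0.53 to 0.40 and an adjusted p of 0.935. On log2(FPKM + 1) the F0 difference was 0.13, of the other sign. A change of the size seen for Neurod1 lay outside the second interval, while a change inside it cannot be told from none.

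The group means of Tubb3 lay between 154 and 174 CPM. It had 161, 155 and 146 CPM in F0-Dep, against 166, 170 and 161 CPM in F0-Ctl, and 189, 161 and 172 CPM in F1-Dep, against 148, 184 and 146 CPM in F1-Ctl. Both pairs of groups overlapped. The log2 fold change was -0.10 ± 0.10 in F0-Dep against F0-Ctl and 0.13 ± 0.10 in F1-Dep against F1-Ctl, with adjusted p values of 0.601 and 0.602 in edgeR. Tubb3 overlaps the readthrough gene Gm20388 on its own strand, so its counts may be split.

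The binding protein Igfbpl1 and the calcium-binding Calb2 did not pass the test in edgeR, though all F1-Dep libraries were below all F1-Ctl libraries for both. Igfbpl1, an insulin-like growth factor binding protein family member found in neuroblasts, had 1.95, 1.81 and 1.49 CPM in F1-Dep, against 7.25, 2.31 and 4.39 CPM in F1-Ctl. It had 3.42, 3.10 and 4.42 CPM in F0-Dep, against 7.38, 5.47 and 7.31 CPM in F0-Ctl. The groups did not overlap in either pair. The log2 fold change was -1.42 ± 0.35 in F1-Dep against F1-Ctl, with an adjusted p of 0.111, and -0.88 ± 0.33 in F0-Dep against F0-Ctl, with an adjusted p of 0.18, both in edgeR.

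Calb2 differed widely between libraries of a group. The F1-Dep libraries had 2.67, 3.44 and 6.03 CPM, against 13.8, 7.21 and 10.03 CPM in F1-Ctl, and did not overlap with them. The F0-Dep libraries had 25.6, 8.64 and 15.6 CPM, against 6.21, 6.56 and 24.2 CPM in F0-Ctl, and overlapped. Its log2 fold change was -1.35 ± 0.56 in F1-Dep against F1-Ctl, with an adjusted p of 0.287, and 0.43 ± 0.53 in F0-Dep against F0-Ctl, with an adjusted p of 0.69, both in edgeR. Calb2 is also made in thalamus and habenula, and 8 markers of these tissues summed to 205 CPM in F0-Dep library 1 and 168 CPM in F0-Ctl library 3, the libraries with the highest Calb2. In the other 10 libraries the sum was 41.7 to 141 CPM. It was 64.7 to 74.4 CPM in F1-Dep, wholly below F1-Ctl at 84.1 to 141 CPM. All 7 of these markers tested were lower in F1-Dep against F1-Ctl, as were 53.1% of all genes. There edgeR called 0 of them, beside 0.167% of all genes. The part of these markers in the Calb2 values was not tested.

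**Figure D3:**
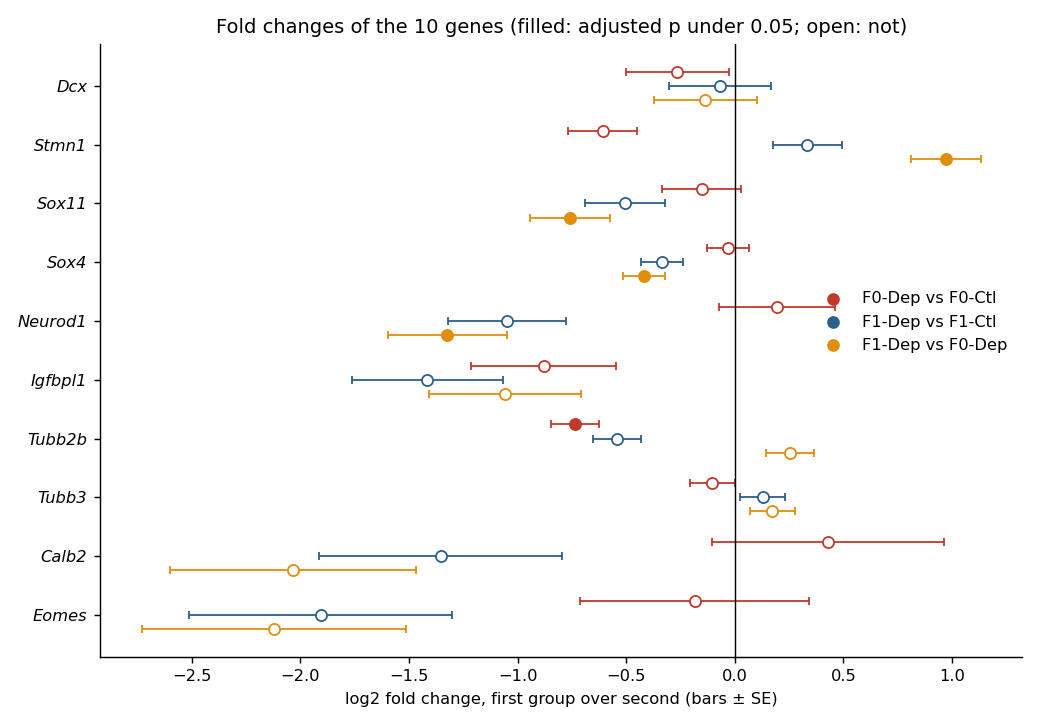
Log2 fold changes of the 10 genes with approximate SE in F0-Dep against F0-Ctl, F1-Dep against F1-Ctl and F1-Dep against F0-Dep. Filled points passed an adjusted p under 0.05: Tubb2b at -0.73 in the first comparison, and Stmn1 at 0.97, Sox4 at -0.42, Sox11 at -0.76 and Neurod1 at -1.32 in the last.

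Counted over groups that did not overlap, all 3 F0-Dep libraries were below all 3 F0-Ctl libraries for 4 members (Stmn1, Sox11, Igfbpl1 and Tubb2b), beside 13.7% of all genes. All F1-Dep libraries were below all F1-Ctl libraries for 5 members (Sox4, Neurod1, Igfbpl1, Tubb2b and Calb2), beside 10.3% of all genes. Against F0-Dep, F1-Dep was wholly below for 6 members, beside 20.4% of all genes, and wholly above for Stmn1, beside 22.6%. Against F0-Ctl it was wholly below for 7 members, beside 10.5%, and wholly above for Stmn1, beside 9.1%. Both counts against the F0 groups include Eomes, which passed the filter on low counts through the groups where it was higher, so it does not add to them as evidence. Whether the change in the sons differed from that in the stressed mice was tested by the interaction term, which called 0 members in edgeR, beside 0.0681% of all genes. At an unadjusted p under 0.05 it held 4 members, beside 13.4% of all genes, and DESeq2 called Stmn1 and Neurod1, beside 3.03%.

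The FPKM values gave more calls among the F0 groups. With limma on log2(FPKM + 1), 4 members fell in F0-Dep against F0-Ctl, where limma called 21.2% of all genes. These were Tubb2b (log2 difference -0.58, adjusted p 0.00908 in limma), Stmn1 (-0.73, 0.019), Igfbpl1 (-0.55, 0.0245) and Tubb3 (-0.37, 0.0283). In F1-Dep against F0-Ctl, limma called Igfbpl1 (-0.94, adjusted p 0.0369), where 0.268% of all genes were called. In F1-Dep against F0-Dep, limma called Neurod1 (-1.29, adjusted p 0.0147), Sox11 (-0.61, 0.0274) and Stmn1 (0.98, 0.0136), where 12% of all genes were called. Sox4 was not called there, with -0.23 and an adjusted p of 0.145. Eomes was too low in FPKM to be tested with the filter on low values.

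Genes of the earlier steps of the lineage were set beside the share of all genes called. Of 15 stem and progenitor genes measured, 14 were tested. In F1-Dep against F1-Ctl their median log2 fold change was -0.11, beside -0.02 over all genes. There edgeR called 1 of them lower and 0 higher, where 0.167% of all genes were called. That gene was Fabp7, a fatty acid binding protein of radial glia and astrocytes, at 7.59 ± 0.60 CPM in F1-Dep and 20.01 ± 4.53 CPM in F1-Ctl (SD, n = 3 each), with an adjusted p of 0.0308 in edgeR. In F1-Dep against F0-Dep edgeR called 1 of the 14, where 2.88% of all genes were called. This was the lysophosphatidic acid receptor gene Lpar1, also made by oligodendrocytes. It rose to 53.3 ± 9.39 CPM in F1-Dep, against 21.4 ± 0.84 CPM in F0-Dep (SD, n = 3 each, adjusted p 0.0467 in edgeR). In F0-Dep against F0-Ctl edgeR called 0 of the 14, beside 0.501% of all genes, and DESeq2 called 1, beside 6.67%.

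Of 19 proliferation genes, edgeR called 0 in F0-Dep against F0-Ctl, where DESeq2 called 1, Ccnd2, beside 6.67% of all genes. The median was -0.16 there, beside -0.03 over all genes, with 14 lower and 5 higher. Their sum was 223 to 238 CPM in F0-Dep, wholly above F0-Ctl at 165 to 221 CPM. Ccnd2 alone made up 47.4% of this sum over the 12 libraries. Without F0-Ctl library 3, F1-Ctl library 3 and F1-Dep library 1, edgeR called Ccnd2 higher there, beside 498 of 16245 genes called. In F1-Dep against F1-Ctl edgeR called 0 with all libraries, with a median of -0.11. There 1 had an unadjusted p under 0.05, beside 14.9% of all genes, and DESeq2 called 1, beside 3.34%. In F1-Dep against F0-Dep edgeR called 1 of the 19, where 2.88% of all genes were called. This was the DNA helicase subunit gene Mcm6, lower at 10.6 ± 2.87 CPM in F1-Dep and 19.6 ± 3.15 CPM in F0-Dep (SD, n = 3 each, adjusted p 0.0384 in edgeR).

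Of 22 further immature neuron genes measured, 21 were tested. In F0-Dep against F0-Ctl and in F1-Dep against F1-Ctl, edgeR called 0 of them. DESeq2 called 2 in each, beside 6.67% of all genes in the first and 3.34% in the second. These were Dpysl3 and Map1b in the first, and Bhlhe22 and Marcksl1 in the second. The 22 genes summed to 2974 to 3209 CPM in F0-Dep, wholly above F0-Ctl at 2472 to 2610 CPM. Map1b alone made up 44.8% of this sum over the 12 libraries. Of the 21 tested, 9 were higher and 12 lower in F0-Dep against F0-Ctl, with a median of -0.04 beside -0.03 over all genes. In F1-Dep against F1-Ctl, 3 had an unadjusted p under 0.05, beside 14.9% of all genes. In F1-Dep against F0-Dep 2 fell and 0 rose in edgeR, where 2.88% of all genes were called, with a median of -0.20 beside 0.01 over all genes. Bhlhe22, a basic helix-loop-helix gene of dorsal telencephalic neurons, was at 78.1 ± 25.2 CPM in F1-Dep and 157 ± 20.6 CPM in F0-Dep (SD, n = 3 each). The actin regulator gene Marcksl1 was at 32.7 ± 9.58 CPM in F1-Dep and 63.7 ± 7.66 CPM in F0-Dep (SD, n = 3 each). Of 11 relatives of the tubulin and stathmin members, edgeR called 0 in these 3 comparisons. Their median was -0.12 in F0-Dep against F0-Ctl (0 called by DESeq2), -0.04 in F1-Dep against F1-Ctl (0) and 0.19 in F1-Dep against F0-Dep (2, beside 9.32% of all genes). In F1-Dep against F1-Ctl 2 had an unadjusted p under 0.05, beside 14.9% of all genes.

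Markers of mature granule neurons moved with Neurod1. In F1-Dep against F1-Ctl 2 of the 10, Plk5 and Tdo2, fell in edgeR, where 0.167% of all genes were called. All 10 had a lower level there, as did 53.1% of all genes, with a median log2 fold change of -1.32 beside -0.02 over all genes. Their summed level was 206, 551 and 430 CPM in F1-Dep, against 1025, 800 and 843 CPM in F1-Ctl, 740 to 991 CPM in F0-Dep and 627 to 894 CPM in F0-Ctl, and none of the 10 was at 0 in any group. Per 100 CPM of these markers, a ratio chosen after the values were seen, Neurod1 was at 3.73, 3.62 and 3.28 CPM in F1-Dep, against 3.22, 3.27 and 3.25 CPM in F1-Ctl, and at 3.94, 4.31 and 3.87 CPM in F0-Dep, against 4.33, 3.41 and 3.86 CPM in F0-Ctl. On that scale all F1-Dep libraries were above all F1-Ctl libraries but below all F0-Dep libraries, the group against which Neurod1 was called. The part of these markers in the Neurod1 values was not tested. Sox4, scaled in the same way, was at 10.7, 4.66 and 5.68 CPM in F1-Dep, against 2.85, 3.81 and 3.70 CPM in F1-Ctl. On this scale the F1-Dep and F1-Ctl means were 5.17 ± 3.31 and 2.70 ± 0.21 CPM for Sox11 (SD, n = 3 each). They were 32.3 ± 13.8 and 18.7 ± 3.95 CPM for Tubb2b and 6.00 ± 5.25 and 2.09 ± 0.20 for Dcx. For Igfbpl1 they were 0.54 ± 0.35 and 0.51 ± 0.21 CPM. They were 1.11 ± 0.42 and 1.15 ± 0.23 CPM for Calb2 and 0.065 ± 0.034 and 0.091 ± 0.066 for Eomes. The F1-Dep means include library 1, with the lowest marker sum of 206 CPM. By library, Dcx was at 12.03, 2.44 and 3.52 CPM in F1-Dep, against 2.18, 2.22 and 1.85 CPM in F1-Ctl. Sox11 was at 8.95, 3.76 and 2.80 CPM in F1-Dep, against 2.85, 2.47 and 2.80 CPM in F1-Ctl. Igfbpl1 was at 0.95, 0.33 and 0.35 CPM in F1-Dep, against 0.71, 0.29 and 0.52 CPM in F1-Ctl.

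Markers of other cells and tissues also differed between groups or libraries. The 9 striatum markers were all higher in F1-Dep than in F0-Dep, 2 of them past the threshold in edgeR, where 2.88% of all genes were called. They summed to 1474, 366 and 274 CPM in F1-Dep, against 193 to 211 CPM in F0-Dep, where Stmn1 was lowest. The 8 markers of the olfactory neuroblast stream summed to 278 CPM in F0-Ctl library 2, the library with the most Dcx at 28.2 CPM. In the other 11 the sum was 112 to 166 CPM. Etv1 alone made up 56.8% of this sum over the 12 libraries. It was 158 to 166 CPM in F1-Dep, wholly above F1-Ctl (112 to 136 CPM) and F0-Dep (114 to 123 CPM). All 7 of these markers tested were higher in F1-Dep against F1-Ctl, where 53.1% of all genes were lower. There edgeR called 0 of them, beside 0.167% of all genes. The libraries next in Dcx had sums of 122 CPM (F0-Ctl library 3, Dcx at 25.1 CPM) and 166 CPM (F1-Dep library 1, 24.7 CPM). Of 9 oligodendrocyte precursor markers, Olig1 and Olig2 rose in F1-Dep against F0-Dep, where edgeR called 2.88% of all genes. The sum was 339 to 358 CPM in F1-Dep, against 221 to 243 CPM in F0-Dep. Against F0-Ctl, the F0-Dep libraries, where Tubb2b was called, had 8 of these 9 lower, beside 54.6% of all genes. The sums were 225, 243 and 221 CPM in F0-Dep, against 281, 309 and 354 CPM in F0-Ctl, and did not overlap. There edgeR called 0 of the 9, and DESeq2 called 4, C1ql1, Neu4, Olig1 and Olig2, beside 6.67% of all genes. The 6 Cajal-Retzius markers, a cell type that makes Calb2, summed to 51.9 to 71.5 CPM in F1-Dep, against 76.0 to 85.7 CPM in F1-Ctl. Reln alone made up 61.4% of this sum over the 12 libraries. In F1-Dep against F1-Ctl 5 of the 6 were lower and 1 was higher, where 53.1% of all genes were lower, and edgeR called 0. Markers of interneurons (10), pyramidal neurons (8) and astrocytes (6) had 0 calls in edgeR in F0-Dep against F0-Ctl, F1-Dep against F1-Ctl or F1-Dep against F0-Dep. DESeq2 called 0 to 2 genes of a list there, beside 3.34% to 9.32% of all genes. In F1-Dep against F1-Ctl 0 to 3 genes of a list had an unadjusted p under 0.05, beside 14.9% of all genes. No list had a gene at 0 in any group, and the part of these markers in the members' values was not tested.

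**Figure D4:**
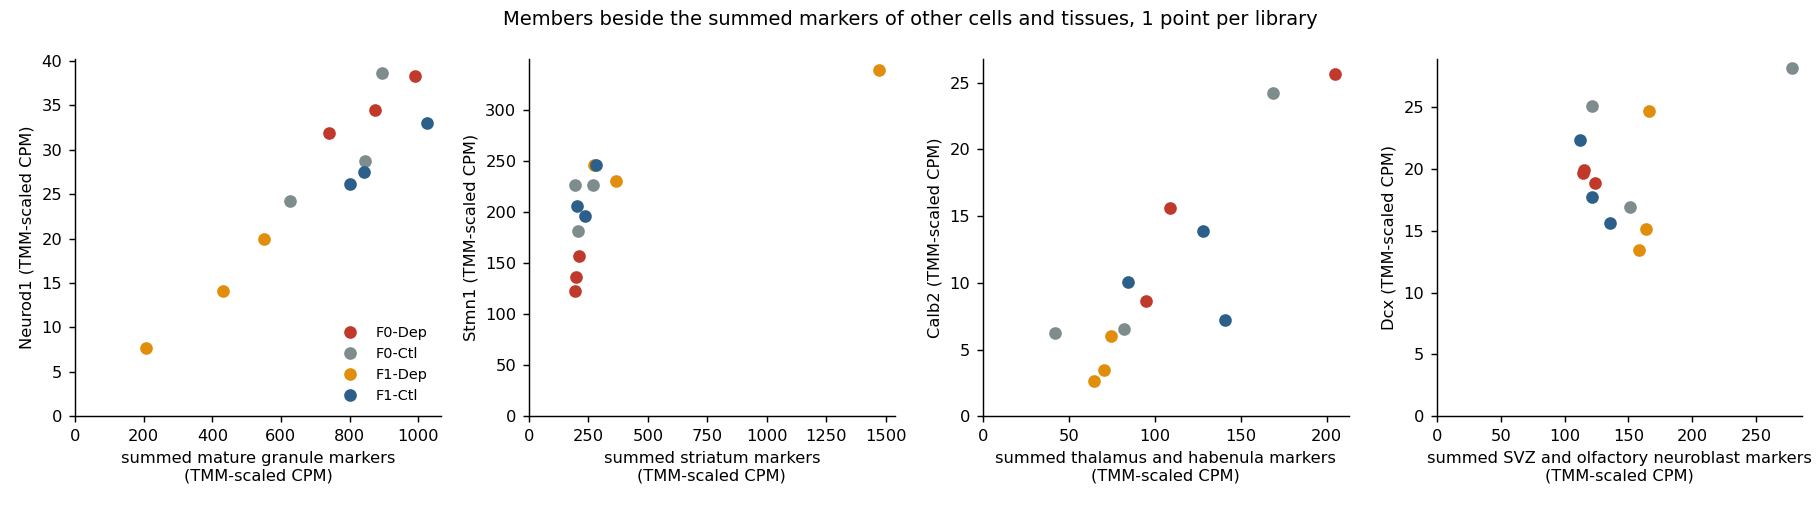
Neurod1, Stmn1, Calb2 and Dcx in CPM against the summed CPM of the markers of mature granule neurons, striatum, thalamus and habenula, and the olfactory neuroblast stream, 1 point per library. The 3 F1-Dep libraries have the lowest granule sums (206 to 551 CPM) and the lowest Neurod1 (7.66 to 19.9 CPM), and F1-Dep library 1 has the highest striatum sum and Stmn1 (339 CPM).

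Left without F0-Ctl library 3 and F1-Ctl library 3, the richest of their groups in choroid plexus markers, and F1-Dep library 1, the richest in striatum markers, edgeR called Tubb2b and Stmn1 in F0-Dep against F0-Ctl. It called Neurod1, Sox11, Calb2 and Stmn1 in F1-Dep against F0-Dep, but not Sox4 (adjusted p 0.0585), and Neurod1, Sox11 and Igfbpl1 in F1-Dep against F0-Ctl. In F1-Dep against F1-Ctl it called 0 members. Of 16245 genes tested, the same fits called 498 in F0-Dep against F0-Ctl, 1345 in F1-Dep against F0-Dep, 627 in F1-Dep against F0-Ctl and 345 in F1-Dep against F1-Ctl. They did not even out the choroid plexus markers, since F1-Dep libraries 2 and 3 stayed in with sums of 4643 and 4272 CPM. The median log2 fold change of the 11 markers was 3.51 in F1-Dep against F1-Ctl, with 8 called, beside 0.17 with all libraries, and 6.62 in F1-Dep against F0-Ctl, with 10 called, beside 1.17 with all libraries.

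The genes whose log2 CPM most resembled a member over the 12 libraries were sought for Dcx, Igfbpl1 and Tubb2b among 11256 genes with a mean of at least 5 CPM. For Dcx they were Atp11b, Zfp641, Plppr3, Slc4a3 and Uvssa, with Pearson r from 0.85 to 0.86. For Igfbpl1 they were Trp53, Cxcl12, Slc16a11, Amdhd2 and Khdrbs1, with r from 0.90 to 0.92. For Tubb2b they were Mrpl45, Ssr2, Eif3d, mt-Nd2 and Mrpl53, with r from 0.93 to 0.98, of which mt-Nd2 is part of the mitochondrial share given above and shares none of its 31-base stretches with Gm28661 (0 of 651). These r describe libraries that share group and depth differences, and the best of many genes is always high.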

How the data were processed

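Hippocampal mRNA of 12 mice was prepared with a stranded library kit, per the labels' protocols. Deposited were expected counts for 35812 gene IDs in 12 libraries, which need not be whole, and FPKM values per gene for 9 libraries; F1-Ctl FPKM values were not used here. Per the submitters' processing notes, HISAT2, Cufflinks 2.2.1 and the build mm10 were used, in roles that are not stated. How reads were counted, and whether by strand, is not given in the sources that were used, so overlapping and antisense genes cannot be told apart. Symbols were matched for 35202 IDs, IDs without one held 0.579% of counts, 58 IDs were summed by shared symbol, and 0 per-sample columns were left unused.

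Expected counts were rounded to whole numbers, scaled by TMM, filtered by filterByExpr (about 0.492 CPM) and tested with edgeR 4.0.16 in R 4.3.3, by the quasi-likelihood F-test over all 12 libraries in 1 fit of 4 group means. A call is a Benjamini-Hochberg adjusted p under 0.05 over all 16153 genes, and SEs of log2 fold changes are approximate, as are the intervals made from them. FPKM was tested as log2(FPKM + 1) with limma 3.58.1 on 13814 genes at 1 FPKM or more in at least 3 libraries, which understates changes of low genes. DESeq2 1.42.0 was an alternative. The fits were tested on simulated data. The closest pair of libraries had a correlation of 0.9905. Replicates are separate mice, but whether sons are siblings is not stated, so p-values measure the spread between these mice.

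All 10 genes are described, with, from each other list, the members past the threshold (up to 3 per list and comparison by smallest p) and, for 3 genes, the 5 most alike. The members and lists were chosen with earlier results of these data known. Totals ran from 18277208 to 23083678, so counting error matters mainly for Eomes. Promoters came from RefSeq on GRCm38.p6 and matched 6 members; positions and coding sequences came from GENCODE M21 on GRCm38.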

Additional observations from a re-analysis of the deposited data

How the results depend on the processing

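Of 1267 alternative values of single members, 1155 kept direction and side of the threshold, 45 lost a call, 39 gained one and 28 changed sign. Most of these values belong to results that were not called, which had no call to lose. Of 23 alternatives each, the call held in 15 for Tubb2b in F0-Dep against F0-Ctl. In F1-Dep against F0-Dep it held in 18 for Stmn1, 16 for Neurod1, 12 for Sox11 and 9 for Sox4. Members called in F0-Dep against F0-Ctl numbered 1; the count was 2 with DESeq2, 0 with these 2 groups alone, 0 with a replicate block, 2 without the 3 marker-rich libraries, 4 with limma on log2(FPKM + 1), 4 on log2(FPKM + 0.1), 2 without the FPKM filter and 0 to 1 leaving out each library. In F1-Dep against F1-Ctl it was 0, with 3 in DESeq2 and 0 to 1 leaving out each library. In F1-Dep against F0-Ctl it was 0, with 6 in DESeq2, 1 without the count filter, 3 without the marker-rich libraries, 1 on log2(FPKM + 1), 1 on log2(FPKM + 0.1) and 0 to 1 leaving out each library. In F1-Dep against F0-Dep it was 4, with 7 in DESeq2, 7 with these 2 groups alone, 1 with the replicate block (Stmn1), 2 without the FPKM filter and 0 to 6 leaving out each library. Over all genes, the fit of these 2 groups alone called 3762 of 15530. The block called 177 of 16153, and the fit without the FPKM filter 560 of 26377. The interaction held 0, with 2 in DESeq2. Any difference held 1, with 7 in DESeq2, 5 without the count filter, 0 with the block, 3 without the marker-rich libraries and 0 to 7 leaving out each library. Every count of 6 or 7 members here includes Eomes, which passed the filter on low counts through groups where it was higher. The causes were not tested. In F1-Ctl against F0-Ctl the count was 0 in all 20 alternatives.

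Replicate numbers do not show which mice belong together: of 18 same-numbered pairs, 2 had deviations correlated over 0.1 (-0.173 to 0.499), so the block is given here alone. Over all genes, leaving out each library gave 5 to 464 calls in F0-Dep against F0-Ctl (81 with all libraries), 0 to 676 in F1-Dep against F1-Ctl (27), 0 to 32 in F1-Dep against F0-Ctl (0), 8 to 1168 in F1-Dep against F0-Dep (465), 0 to 230 in the interaction (11) and 4 to 2628 for any difference (63). For F1-Ctl against F0-Ctl (0 with all libraries) it gave 0 to 398, the highest without F1-Ctl library 1. For any difference DESeq2 called 2342 genes, the fit without the count filter 480, the block 11 and the fit without the marker-rich libraries 1185. In F0-Dep against F0-Ctl the fit of these 2 groups alone called 23 of 15549 genes, and the block 12 of 16153. The limma fit without the FPKM filter called 1616 of 26377 there.

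The changes of sign were all in values not called. With limma on FPKM, Dcx in F0-Dep against F0-Ctl was 0.13 (pseudocount 1, with or without the filter) or 0.19 (pseudocount 0.1), Sox11 was 0.038 or 0.046, and Tubb3 in F1-Dep against F0-Ctl was -0.037. Without the marker-rich libraries, Tubb3 in F1-Dep against F0-Ctl was -0.014, the Dcx interaction -0.28, and in F1-Ctl against F0-Ctl Stmn1 was -0.019 and Calb2 0.73. Without TMM scaling, Stmn1 in F1-Ctl against F0-Ctl was -0.033.

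Leaving out 1 library, in F0-Dep against F0-Ctl Sox4 ran from -0.097 to 0.057 (sign turned without F0-Dep 2 or F0-Ctl 1), Calb2 from -0.0089 to 1.38 (F0-Dep 1) and Eomes from -0.31 to 0.092 (F0-Ctl 2). Dcx ran from -0.38 to 0.10 in F1-Dep against F1-Ctl (F1-Dep 2 or 3, F1-Ctl 1), from -0.44 to 0.034 in F1-Dep against F0-Dep (F1-Dep 2) and from -0.11 to 0.36 in the interaction (F1-Dep 1). In F1-Ctl against F0-Ctl, Stmn1 ran from -0.061 to 0.097 (F0-Ctl 1 or F1-Ctl 3), Neurod1 from -0.22 to 0.14 (F0-Ctl 1), Tubb3 from -0.20 to 0.014 (F1-Ctl 3) and Calb2 from -0.55 to 0.70 (F0-Ctl 3). Depth limits Eomes, at 3.03 to 8.01 expected counts in F1-Dep.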
